A study of Homo sapiens with 4 samples.

Results

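Decapping and 5' to 3' decay factors are the proteins that remove the cap of a messenger RNA and then degrade the body of the transcript from its 5' end. Here they are 10 genes of the 19775 genes on the array, chosen by symbol: every probe set whose platform annotation names DCP2, DCP1A, DCP1B, EDC3, EDC4, DDX6, LSM1, PATL1, XRN1 or DCPS and no other gene. These genes had 24 probe sets, from 1 for DCP1B, EDC4, LSM1 and DCPS to 5 for PATL1. They were measured in U937, a human myelomonocytic line derived from a histiocytic lymphoma, on Affymetrix HG-U133 Plus 2.0 arrays. One group, called knock-down here, carried the hairpin shPIR#7 against PIR (pirin, an iron-binding nuclear protein) in the lentiviral vector pSICO-R. The other group carried the empty vector, so the control cells expressed no hairpin, and only 1 hairpin was used. All cells grew in the same medium with FCS and glutamine. RNA from 3 extractions was mixed into 1 pool per condition, and each pool was hybridised to 2 arrays, which gives 4 arrays in all. Arrays of the same pool are repeat hybridisations, not repeat cultures, so each condition is 1 sample, no test of the condition exists, and every SD below (n = 2 arrays) covers hybridisation error only.

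In the cytoplasm most messenger RNAs are first shortened at their poly(A) tail. DCP2, a Nudix-family hydrolase, then cuts the cap with the help of its partner DCP1 and of activators such as EDC3, EDC4, the helicase DDX6, the scaffold PATL1 and the LSM1-7 ring, which binds the shortened tail. The exonuclease XRN1 degrades the uncapped RNA, many of these proteins gather in processing bodies (P-bodies), and in myeloid cells the route is known for its part in the turnover of short-lived cytokine transcripts.

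The knock-down was visible in its target. The PIR probe set 207469_s_at had signals of 83.4 and 91.5 after knock-down against 1812.9 and 1881.7 with the empty vector. Signals are the deposited linear intensities, scaled to a common mean of each array, and differences are of log2(signal + 18), knock-down minus empty vector, which understates the change of dim probe sets. A brightness limit was set at the 60th percentile of signal on each array, which lay between 116.4 and 125.5. A probe set counts as measured if it reached that limit on both arrays of either pool; 10288 genes, each represented by its brightest probe set, were measured. Of 8 listed myeloid markers, 6 had a usable probe set and the others were not analysed here; 4 of the 6 were measured (LYZ, SPI1, CSF1R and ANPEP), while MPO and FCGR1A were below the limit. The summed signal of the 6 was 30425 to 36214 after knock-down against 30512 to 30741 with the empty vector. Most of that sum was LYZ, with 25099.6 and 30525.0 against 27355.8 and 27532.8. CSF1R had 384.2 and 284.8 against 195.9 and 201.0 (0.69), so its pools did not overlap. Those of LYZ and SPI1 did on their brightest probe sets. ANPEP met the size rule given below as higher, with 4253.9 and 4634.0 against 2216.6 and 2102.7 (1.03). None of 4 T cell and none of 2 erythroid markers was measured. Of 3 B cell markers CD79A and PAX5 were, with signals over the 4 arrays of 288.9 to 369.3 and of 271.9 to 401.8 on their brightest probe sets. The summed T cell signal was 168 to 185 against 95 to 105, the summed erythroid signal 141 to 189 against 105 to 127, and the summed B cell signal 579 to 711 against 674 to 800. The part of these signals in the results was not tested. The ratio of the 3' to the 5' control probe set, a sign of RNA integrity, was 0.98 and 1.0 for GAPDH in the knock-down pool and 0.96 and 1.02 in the empty-vector pool, and 1.17 to 1.18 for ACTB on all 4 arrays. The signal comes from whole cultures, so fewer cells with a transcript and less of it per cell cannot be told apart.

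DCP2, the catalytic subunit of the decapping enzyme, stood apart from its partners on its brightest probe set, which was 4.63-fold lower in the knock-down pool. Another measured DCP2 probe set was higher without overlap (0.57 on the log2 scale), so its probe sets gave no single direction. No other member differed by as much as 1.5-fold on its brightest probe set. PATL1 and XRN1 were moderately higher on every measured probe set. On their brightest probe sets the remaining 7 members differed by 0.29 or less on the log2 scale. The size rule asked for a difference of 1 or more (2-fold), for 0.5 or more in the same direction in each of the 4 pairs of arrays, and for signals at or above the brightness limit on both arrays of the higher pool. By this rule 1 of the 10 members was lower, against 1.1% of all measured genes, and none was higher, against 2.44%. All 10 members were measured, and all 19 of their measured probe sets reached the limit in both pools, so none was counted through its higher pool alone. The 5 other member probe sets were dimmer. The median difference over the 10 members was 0.14, against 0.05 over all measured genes, and it was 0.18 over the 9 members other than DCP2. It was 0.08 without knock-down array 2. The members were proposed with these values known, so their differences are a description.

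**Figure D1:**
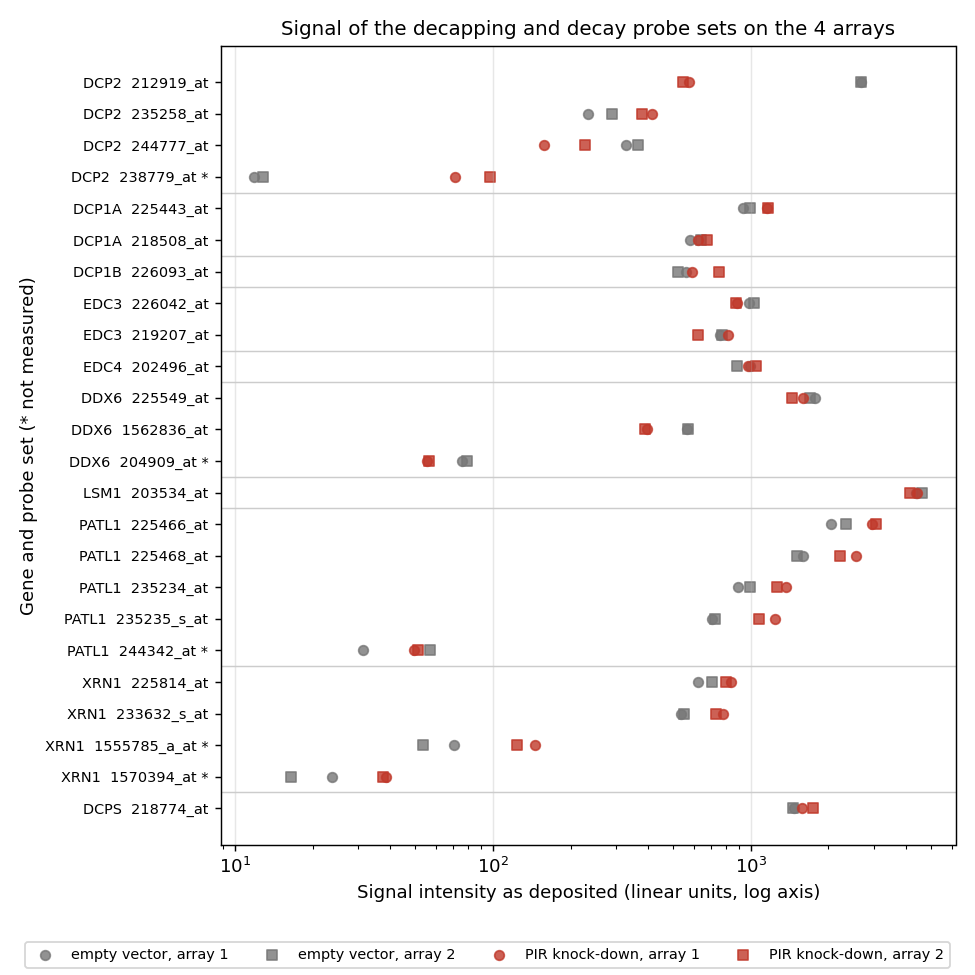
Deposited signal intensity (log axis) of each of the 24 member probe sets on the 4 arrays, red for PIR knock-down and grey for empty vector, with circles for array 1 and squares for array 2 of a pool; an asterisk marks probe sets that were not measured. The DCP2 probe set 212919_at shows the widest gap among the measured probe sets, with 548.1 to 574.5 against 2663.1 to 2664.6.

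The arrays of the pools did not overlap for 8 members. Of these, 5 were higher in the knock-down pool (DCP1A, DCP1B, PATL1, XRN1 and DCPS), where 40.9% of all measured genes were higher without overlap, and 3 were lower (DCP2, EDC3 and DDX6), where 31.2% were. These shares are near the background, so the absence of overlap by itself says little about the members. EDC4 and LSM1 overlapped. With each array scaled to a common median instead of the deposited common mean, the median of all measured genes moved from 0.05 to 0.17. Then 6 members were higher and 1 lower without overlap: EDC4 was higher (0.23), while EDC3 and DDX6 overlapped (-0.06 each). The shares of all measured genes were not computed with that scaling, so these counts have no background beside them. Among the 19 measured member probe sets, 10 were higher without overlap (37.4% of all measured probe sets) and 5 were lower (33.3%).

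**Figure D2:**
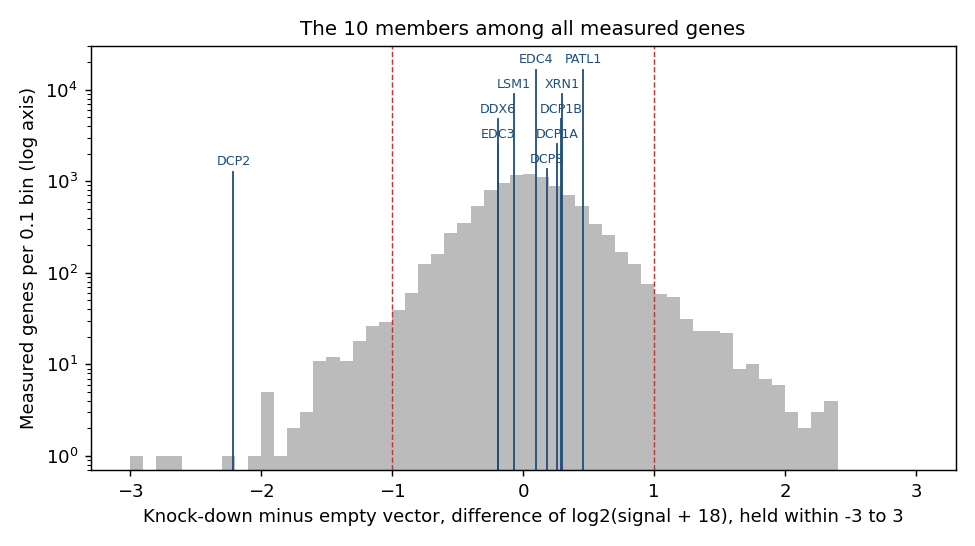
Number of measured genes (grey, log axis) by the difference of log2(signal + 18) between the pools in bins of 0.1, with the 10 members marked by blue lines on their brightest probe set and the 2-fold limits dashed in red. DCP2 lies at -2.21, and the other 9 members lie between -0.19 and 0.46; values beyond 3 in either direction are drawn at the edge.

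DCP2 was read by 4 probe sets, and they did not give 1 answer. The brightest, 212919_at, had signals of 574.5 and 548.1 after knock-down against 2663.1 and 2664.6 with the empty vector. The pools were far apart, and the arrays of each pool lay close together, with an SD of 0.05 in the knock-down pool and of less than that in the empty-vector pool on the log2 scale. The difference was -2.21, and the 4 array pairs ran from -2.24 to -2.18. Of the 10288 measured genes, 3 had a more negative difference on their brightest probe set. The second probe set, 235258_at, went the other way, with 412.4 and 379.7 on the knock-down arrays against 233.8 and 290.1, a difference of 0.57 (1.49-fold higher). Both knock-down arrays were above both empty-vector arrays, but the 2 empty-vector arrays differed from each other by an SD of 0.21. The third, 244777_at, was lower again, with 158.5 and 228.3 against 328.5 and 364.1, a difference of -0.80. Its array-by-array differences ran from -1.11 to -0.49, and of the alternatives run, it met the size rule only without knock-down array 2. The fourth, 238779_at, had 71.1 and 97.4 after knock-down against 11.9 and 12.8 with the empty vector, which is higher without overlap (1.74), but all 4 signals lay below the brightness limit. That difference depends on the constant added before the logarithm: it was 2.75 with none and 0.88 with 72. Averaged over all 4 probe sets, DCP2 differed by -0.18 and no longer met the size rule. That average gives 238779_at, which was not measured, the same weight as the others. The summed signal of the 3 measured probe sets was 1145.4 and 1156.1 after knock-down against 3225.4 and 3318.8, a sum that rests mostly on 212919_at.

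The measured DCP2 probe sets spanned 2.78 on the log2 scale. Among the 5117 genes with at least 2 measured probe sets the median span was 0.32, and 4 genes, DCP2 included, had a span as large as that of DCP2. Probe sets of opposite sign were common (41.4% of these genes). The reference gene table lists 6 transcripts for DCP2. Which of them each probe set reads is not given in the sources used here, and no probe set of DCP2 carries a RefSeq messenger RNA as its annotated source record; 6 of the 24 member probe sets do.

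The promoters of DCP2, PATL1 and XRN1 are shown because these 3 members had the largest differences of their brightest probe sets. Sequences are from RefSeq on GRCh38.p14, from 250 bases before to 50 bases after the annotated start, 5' to 3' on the strand of the gene; 9 of the 10 members matched an entry. Capitals mark the CCAAT box (CCAAT) and the GC box (GGGCGG), each searched on both strands; no CCAAT box overlapped a GC box in these 3 windows. The DCP2 window is chr5:112976548-112976847 on the plus strand, the PATL1 window chr11:59668988-59669287 on the minus strand and the XRN1 window chr3:142447988-142448287 on the minus strand.
DCP2: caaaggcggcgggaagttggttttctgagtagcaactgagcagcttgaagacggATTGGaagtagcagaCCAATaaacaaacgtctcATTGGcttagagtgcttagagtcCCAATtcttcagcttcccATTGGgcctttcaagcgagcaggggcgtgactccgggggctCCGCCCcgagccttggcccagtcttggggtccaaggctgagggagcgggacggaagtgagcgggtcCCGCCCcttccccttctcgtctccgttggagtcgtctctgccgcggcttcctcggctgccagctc
PATL1: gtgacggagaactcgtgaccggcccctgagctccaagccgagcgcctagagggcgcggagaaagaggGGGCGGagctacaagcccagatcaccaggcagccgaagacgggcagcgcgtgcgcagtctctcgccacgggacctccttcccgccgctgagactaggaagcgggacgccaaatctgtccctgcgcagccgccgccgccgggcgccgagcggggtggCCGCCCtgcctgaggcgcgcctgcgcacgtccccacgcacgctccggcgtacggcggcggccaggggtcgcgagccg
XRN1: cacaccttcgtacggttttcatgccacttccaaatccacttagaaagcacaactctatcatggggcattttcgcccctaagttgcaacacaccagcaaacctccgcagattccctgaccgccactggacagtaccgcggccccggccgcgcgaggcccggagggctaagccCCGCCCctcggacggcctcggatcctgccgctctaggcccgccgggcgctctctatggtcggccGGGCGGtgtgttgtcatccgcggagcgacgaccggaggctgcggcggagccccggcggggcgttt

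The DCP2 window held 5 CCAAT boxes, starting at bases 55, 70, 88, 111 and 129 of the window, and 2 GC boxes. The PATL1 and XRN1 windows each held 2 GC boxes and no CCAAT box, and none of the 8 matched members other than DCP2 had a CCAAT box. Of the 35116 promoter windows in the table, 34.6% held at least 1 CCAAT box, 0.359% held 5 or more, and 45.0% held a GC box. Such a match describes the letters only.

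**Figure D3:**
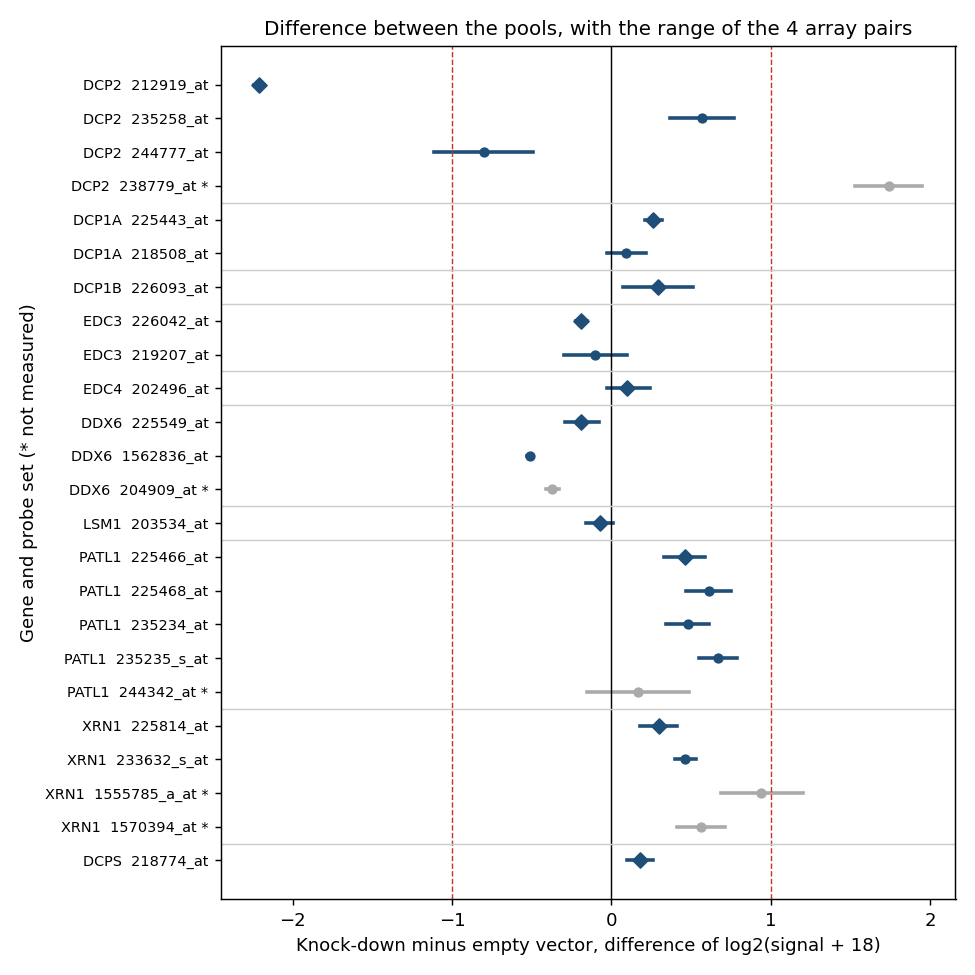
Difference of log2(signal + 18), knock-down minus empty vector, for each member probe set; diamonds are the brightest probe set of a gene, circles the others, lines the range of the 4 array-by-array differences, grey the probe sets that were not measured, and red dashes the 2-fold limits. The 4 DCP2 probe sets lie between -2.21 and 1.74, while the 4 measured PATL1 probe sets lie between 0.46 and 0.67.

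The direct partners and activators of DCP2 differed little. DCP1A, the main partner that stimulates the enzyme, had signals of 1155.7 and 1162.2 after knock-down against 929.6 and 996.6 with the empty vector for 225443_at. This was 1.2-fold higher without overlap (0.26), and the second DCP1A probe set, 218508_at, overlapped (625.5 and 677.0 against 580.5 and 641.2, a difference of 0.09). DCP1B, its paralog, had 591.5 and 750.3 against 562.8 and 520.0, a difference of 0.29. The knock-down arrays were higher, but their 2 signals lay further apart than the pool means, 671 after knock-down and 541 with the empty vector. Their SD was 0.24 on the log2 scale, and single array pairs gave 0.07 to 0.51. EDC3, an enhancer of decapping that binds DCP1 and DDX6, was slightly lower on 226042_at, with 883.6 and 878.9 against 984.7 and 1024.9 (-0.19). The second EDC3 probe set, 219207_at, overlapped: its signals were 816.2 and 625.2 against 759.5 and 773.9, and its difference of -0.10 became 0.02 with median scaling and 0.09 without knock-down array 2. EDC4, the large scaffold that joins DCP1 to DCP2, overlapped as well, with 972.5 and 1045.8 against 995.3 and 884.3 (0.10).

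Among the factors that bring the decapping enzyme to its substrates, DDX6 was lower and PATL1 higher. DDX6, an RNA helicase of P-bodies, had 1596.2 and 1442.5 after knock-down against 1766.1 and 1692.4 with the empty vector for its brightest probe set, 225549_at (-0.19). A second probe set, 1562836_at, gave 395.9 and 390.5 against 564.3 and 571.0, a difference of -0.51 that ran from -0.53 to -0.49 over the array pairs. The third, 204909_at, was below the brightness limit and gave -0.37. All 3 DDX6 probe sets were thus lower without overlap, by 1.14-fold to 1.42-fold, although with median scaling the brightest overlapped. LSM1, the subunit that sets the cytoplasmic LSM1-7 ring apart from the nuclear ring, had 4396.3 and 4129.3 against 4351.7 and 4615.4. The arrays overlapped, and the difference of -0.07 became 0.05 with median scaling.

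PATL1, which bridges the LSM1-7 ring and the decapping enzyme, was higher on all 4 of its measured probe sets. The brightest, 225466_at, had 2952.9 and 3071.3 after knock-down against 2039.5 and 2346.7 with the empty vector, a difference of 0.46 (1.37-fold). Probe set 225468_at had 2556.7 and 2221.7 against 1594.8 and 1514.9 (0.61). Probe sets 235234_at and 235235_s_at, whose annotated source record is the same and which are therefore not independent readings, gave 0.48 and 0.67. On 235235_s_at the signals were 1237.6 and 1074.3 against 706.3 and 725.6, or 1.6-fold higher, which was the largest measured PATL1 difference. None reached 2-fold, and 1434 of the 10288 measured genes had a larger positive difference than the brightest PATL1 probe set. The fifth probe set, 244342_at, was below the brightness limit and overlapped (49.6 and 51.4 against 31.5 and 57.2).

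XRN1, the exonuclease that acts after the cap is gone, was higher on all 4 probe sets without overlap. Its brightest, 225814_at, had 838.9 and 804.2 after knock-down against 625.3 and 709.1 with the empty vector (0.30), and 233632_s_at had 780.7 and 732.4 against 536.8 and 552.1 (0.46, or 1.38-fold). Of the dimmer probe sets, 1555785_a_at had 145.8 and 124.3 against 70.4 and 53.4, a difference of 0.94. This probe set lay just outside the size rule on both counts: its second knock-down signal missed the limit of that array, 124.5, and its difference was short of 1. Without knock-down array 2 it met the rule. The last, 1570394_at, gave 0.56 at signals of 38.5 or less. DCPS, the scavenger enzyme that breaks down the cap left over from 3' to 5' decay, had 1577.6 and 1748.1 against 1466.8 and 1455.0, which was 1.14-fold higher without overlap (0.18).

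Probe sets lay closer together outside DCP2. Of the 6 members with at least 2 measured probe sets, 5 had the same sign on all of them, and their spans ran from 0.09 for EDC3 to 0.32 for DDX6, at or below the median span of all genes. The spans were 0.17 for DCP1A, 0.22 for PATL1 and 0.17 for XRN1. At the level of probe sets, 1 of the 19 measured met the size rule as lower (1.45% of all measured probe sets) and none as higher (2.29%). With the limit lowered to 1.5-fold, DCP2 was still the only member gene called lower (3.8% of measured genes) and none was higher (6.98%). Of the member probe sets, 1 was then lower (4.91%) and 1 higher (6.45%), the latter being PATL1 235235_s_at.

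The other genes of cytoplasmic decay were described through 6 lists of 63 genes. Of these, 56 were measured, 1 was higher by the size rule and none was lower; 15 were higher and 28 lower without overlap (40.9% and 31.2% of all measured genes), and their median difference was -0.09, against 0.05 over all measured genes. Both the sign of that median and the balance of the counts turned with median scaling, to 0.04 with 24 higher and 13 lower. The matching shares of all measured genes were not computed with that scaling. The companion median lay below that of all measured genes in both cases, at -0.14 relative to it as deposited and -0.13 with median scaling. Of the list medians below, those of the deadenylases, the exosome with SKI and the AU-rich element binders turned sign in the same way (0.03, 0.05 and 0.03). PNRC1, a nuclear receptor coactivator of a family that also binds the decapping complex, was the one that met the rule. Its only probe set had 2509.6 and 2602.2 after knock-down against 581.2 and 907.4 with the empty vector, a difference of 1.79 (3.46-fold), and the 4 array pairs ran from 1.45 to 2.13. Its paralog PNRC2, an activator of DCP2 in nonsense-mediated decay, was listed with it and had 5503.9 and 5203.0 against 6984.3 and 6708.4 (-0.35) on its brightest probe set. The second PNRC2 probe set, 222406_s_at, went the other way without overlap, with 1915.2 and 1623.8 against 1385.1 and 1388.8 (0.34), so the array gives no single direction for this gene. The list of 10 other decapping and P-body factors had a median of 0.11, which was 0.24 with median scaling, 0.02 without knock-down array 2 and 0.04 without empty-vector array 1.

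The 6 partners of LSM1 in its ring had a median of -0.15 (-0.03 with median scaling, -0.04 without knock-down array 1). Without overlap 1 of them was higher and 4 were lower (40.9% and 31.2% of all measured genes). With median scaling 2 were higher and 1 was lower, and no share of all measured genes was computed with that scaling. LSM4 had the largest difference, with 3221.4 and 3346.8 against 5798.6 and 5500.2 (-0.78, or 1.72-fold lower), and its second measured probe set gave -0.76. LSM2 followed at -0.23 on the brightest probe sets. LSM5 had 0.06 on its brightest probe set but -0.78 on 202903_at (538.4 and 561.6 against 964.5 and 951.4) and -0.29 on 202904_s_at. Deadenylases shorten the tail before decapping. Of their 17 measured genes, 5 were higher and 9 lower without overlap (40.9% and 31.2% of all measured genes). Their median was -0.09 (-0.04 without knock-down array 1). CNOT1, the scaffold of the CCR4-NOT complex, had 2648.0 and 2388.8 against 3680.8 and 3728.4 (-0.56), and CNOT6, a catalytic subunit, had 1024.7 and 919.7 against 1442.4 and 1417.6 (-0.55).

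The exosome and its SKI cofactor degrade transcripts from the 3' end. Their 15 genes had a median of -0.07 (-0.04 without knock-down array 1 and -0.12 without knock-down array 2). Of these, 5 were higher and 7 lower without overlap (40.9% and 31.2% of all measured genes). EXOSC8 and EXOSC3, both core subunits, had the largest differences of this list, at -0.58 and -0.54. In nonsense-mediated decay 3 of the 4 genes with a probe set were measured. UPF2 and UPF1 differed by -0.34 and -0.22 on their brightest probe sets. Another UPF1 probe set, 208947_s_at, went the other way without overlap (0.19). Among 5 measured proteins that bind AU-rich elements, ZFP36, which recruits decay enzymes to cytokine messages, had 1230.4 and 1062.9 against 827.7 and 838.3 (0.45), and HNRNPD gave -0.20 on its brightest probe set. The median was -0.09, which was -0.15 without knock-down array 1, -0.03 without knock-down array 2 and -0.05 without empty-vector array 2. With the probe sets of each gene averaged, the list medians were -0.29 for the LSM1 partners, 0.02 for the other decapping and P-body factors, -0.17 for the deadenylases, -0.21 for the exosome with SKI, -0.05 for nonsense-mediated decay and -0.05 for the AU-rich element binders. Of the 126 measured companion probe sets, 3 met the size rule as lower (1.45% of all measured probe sets) and 1 as higher (2.29%).

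**Figure D4:**
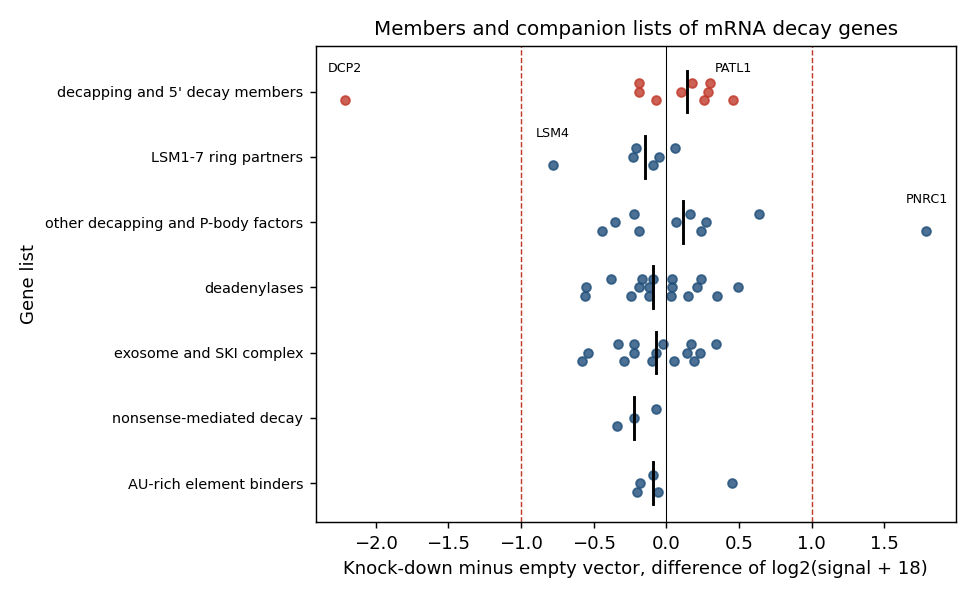
Difference of log2(signal + 18) on the brightest probe set of each measured gene, for the 10 members (red) and the 6 lists of other decay genes (blue), with black bars at the list medians and red dashes at the 2-fold limits. DCP2 at -2.21 and PNRC1 at 1.79 are the points beyond the limits, and the list medians lie between -0.22 and 0.14; those of the deadenylases, the exosome with SKI and the AU-rich element binders turned positive with median scaling.

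The 5 measured genes whose profile was most like that of DCP2 212919_at over the 4 arrays, by the distance between log2 values centred on each gene's mean, were DYNLT1 (0.23), SPCS3 (0.30), UTP18 (0.46), CLDN19 (0.51) and WSB2 (0.52). DYNLT1, a dynein light chain, had 1888.4 and 1896.4 after knock-down against 7435.9 and 7637.0 with the empty vector, a difference of -1.98. SPCS3, a signal peptidase subunit, had -1.92 on 221844_x_at, an identifier whose ending marks probes that may also match other sequences. Its other probe sets gave 0.03 and -0.67, so the SPCS3 probe sets disagreed too. UTP18, which acts in processing of ribosomal RNA, had -2.67. Its second probe set gave -2.19, with knock-down signals of 16.2 and 48.4, below the brightness limit. CLDN19 was below that limit in the knock-down pool, and its other probe sets, which were not measured, gave -0.09 and 1.09. With 4 arrays of 2 pools, likeness mostly repeats the size of the difference.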

How the data were processed

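RNA from 3 extractions was mixed into 1 pool per condition and put on 2 arrays each, per the labels' protocols. The deposited values are linear signal intensities of probe sets. The submitters' processing notes name GCOS as the software; its version was not given in the sources used here. After trimming 2% of probe sets at either end, the mean was 500.07 on all 4 arrays, so the authors had scaled the arrays to 1 level, without centring and with no direction in the values. This assumes equal total signal in the pools. No detection calls were used here, and the number of arrays limits the precision.

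The 62 AFFX controls entered only the RNA integrity ratios. Of 54613 other probe sets, 41091 had 1 gene symbol in the platform annotation, and those with several (1801) or none (11721) were not named. Current symbols came from the reference gene table, which held 41037 of the identifiers. The brightest probe set by mean log2 value stood for its gene. Arrays of a pool were averaged, each pool counted as 1 sample, and no test was made. The constant 18 is close to the mean 25th percentile of signal (18.4). The size rule ran over the whole table and was tried on simulated arrays. Their noise was drawn from the spread between arrays of the same pool, so that check says nothing about variation between cultures.

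Named genes are every member, PIR, the genes of each companion list that met the rule or otherwise the 2 with the largest differences, and the 5 profiles nearest to DCP2; PNRC2 and LSM5 were named after their values were seen. The members, lists and rules were chosen with earlier results of these data known. Alternatives were other constants (none, 72), other brightness limits (none, 75th percentile), quantile normalization, median scaling, a 1.5-fold limit, averaging the probe sets of a gene, and leaving out each array. Python 3.11.15, pandas 2.3.3, numpy 2.4.6 and matplotlib 3.10.9 were used.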

Additional observations from a re-analysis of the deposited data

How the results depend on the processing

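The DCP2 difference of -2.21 was -2.25 with no constant added, -2.11 with a constant of 72 and -2.09 with median scaling, and -2.24 to -2.18 with single arrays left out. Averaged over all DCP2 probe sets, with the unmeasured 238779_at weighted like the others, it was -0.18. No member then met the size rule as lower (0 in place of 1). The median over the members, 0.14, was 0.27 with median scaling, where the median of all measured genes moved from 0.05 to 0.17, so that the members lay 0.1 above it in both; it was 0.08 to 0.20 with single arrays left out. The count of member probe sets that met the rule as higher was 1 in place of 0 without the brightness limit (DCP2 238779_at) and with a 1.5-fold limit (PATL1 235235_s_at, against 6.45% of all measured probe sets), and 0 to 1 with single arrays left out (XRN1 1555785_a_at); as lower it was 1 to 2 (DCP2 244777_at). With the 1.5-fold limit 2 companion genes were higher (PNRC1 and NUDT16, against 6.98% of measured genes) and 1 lower (LSM4, against 3.8%). Of the other 35 results, 26 moved by more than the SD between arrays with median scaling, 4 with quantile normalization and 6 with either other constant, as did 10 of 21 with probe sets averaged. The sign of 3 results turned: LSM1, EDC3 219207_at and PATL1 244342_at, the last without empty-vector array 1 (-0.13). Over all measured genes the share of calls that were higher was 69.0%, 81.7% with median scaling, and 52.0% without the brightness limit. No paired analysis was possible because both arrays of a condition come from 1 RNA pool and no result comes from a test.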

Other observations

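Of 37 companion decay genes with at least 2 measured probe sets, 19 had probe sets of opposite sign, against 41.4% of all 5117 such genes. The examples here were singled out after their values were seen. The 3 companion probe sets that met the size rule as lower were not the brightest of their genes. The widest of these gaps was in KHSRP, which binds AU-rich elements: 227555_s_at had 100.1 and 24.4 after knock-down, below the brightness limit, against 171.3 and 186.9 with the empty vector (-1.48), and its brightest probe set gave -0.18. CNOT9, a subunit of the CCR4-NOT complex, had 396.1 and 436.6 against 971.0 and 949.1 on 213179_at (-1.17) and -0.09 on its brightest probe set. The second CNOT6 probe set, 222476_at, had 681.6 and 623.6 after knock-down against 1431.4 and 1323.1 with the empty vector, a difference of -1.06 that met the size rule, whereas the brighter CNOT6 probe set gave -0.55. For CNOT1 the probe set 1554052_at gave -0.02 beside -0.56 and -0.50. The UPF1 probe sets had opposite signs, -0.22 and 0.19, each without overlap of the pools. HNRNPD, whose product binds AU-rich elements, gave -0.20 on its brightest probe set, -0.70 on 221480_at (1505.6 and 1511.5 against 2512.0 and 2427.2) and 0.27 on 213359_at (383.7 and 412.2 against 336.0 and 318.7). EXOSC3 was lower without overlap on all 6 of its probe sets, where 33.3% of all measured probe sets were. Of these, 233495_at (82.4 and 196.2 after knock-down) reached the brightness limit on both arrays in the empty-vector pool only.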
